A study of Mus musculus with 62 samples.

Results

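Nonclassical monocytes sorted from mouse bone marrow were compared with intermediate monocytes sorted from the same tissue, each as 2 libraries, out of 62 libraries in the series. The 4 libraries were chosen by their titles alone, which give the subset and a replicate number. The other libraries of the series are 2 of classical primary monocytes, 8 of primary monocytes sorted as classes 1 to 4, and 48 of cultured ER-Hoxb8 clones; the 2 classical libraries appear here as a further point beside the 4. The labels give no strain, age, sex, treatment or sorting gate for any primary library, nor any animal or pool behind a replicate, so the spread between replicates may be technical. For each gene the question was whether both replicates of 1 subset separate from both of the other.

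In mice, classical monocytes carry much of the surface antigen Ly6C, leave the marrow through the chemokine receptor Ccr2 and enter inflamed tissue, while nonclassical monocytes carry little Ly6C, patrol the vessel wall and depend on the nuclear receptor Nr4a1. Intermediate monocytes are sorted between them. Monocytes descend from dividing granulocyte-monocyte progenitors, which make the serine proteases and the peroxidase of primary granules, and circulating nonclassical cells are thought to have stopped dividing. The bone marrow from which these libraries were sorted also holds B cells at several stages, granulocyte precursors, basophils and resident macrophages. These are bulk libraries, in which fewer cells of a type and less RNA per cell cannot be told apart.

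All 28 genes on a list of mitosis genes, 12 of 15 on a list of progenitor and primary granule genes and 10 of 14 tested neutrophil genes were lower in both nonclassical libraries than in both intermediate ones. On the other side, 16 of 17 tested B cell genes and 22 of 24 nonclassical monocyte genes were higher. Any gene was lower in this sense in 17.6% and higher in 19.6% of cases. The 4 genes given as markers of the comparison each separated: Foxm1, the transcription factor that drives mitotic genes, had 12.4 and 11.3 CPM (read counts per gene relative to the library's TMM-scaled total) in the nonclassical libraries, against 52.1 and 56.03 CPM in the intermediate ones. Top2a, the topoisomerase that untangles chromosomes before they part, had 88.1 and 76.8 CPM in nonclassical and 327 and 295 CPM in intermediate libraries. Prtn3, a primary granule protease, had 9.21 and 7.01 CPM in nonclassical and 269 and 792 CPM in intermediate libraries. Tnfrsf13c, the receptor through which B cells read the survival factor BAFF, stood the other way, with 160.5 and 188 CPM in nonclassical and 22.6 and 28.8 CPM in intermediate libraries. The log2 fold changes, nonclassical minus intermediate, were -2.19 (SE 0.18), -1.91 (SE 0.17), -6.03 (SE 0.64) and 2.76 (SE 0.27) in that order of genes, with n = 2 libraries each. Each SE was derived from the quasi-likelihood F test of a fit that includes the classical libraries, not from 2 against 2 alone. In that test the adjusted p was 0.22 for each of the 4 genes.

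The promoters of mitosis genes are shown because members of that list separated together and because many carry the same short elements. The windows run from 250 bases before to 50 bases after a gene's start in RefSeq on GRCm38.p6, which is not the mm9 build of the count table, and are printed 5′ to 3′ on the gene's strand. Capitals mark TTTGAA, a form of the cell cycle homology region or CHR element, and CCAAT, the CCAAT box. Each was marked in either orientation, so TTCAAA and ATTGG are in capitals too. Other forms of the CHR element, such as TTCGAA, were neither searched nor marked. Top2a lies at chr11:99024140-99024439 on the minus strand, Ccnb2 (cyclin B2) at chr9:70421505-70421804 on the minus strand, Ube2c (a ubiquitin-conjugating enzyme that feeds the anaphase-promoting complex) at chr2:164769679-164769978 on the plus strand, and Bub1 (a kinase of the spindle checkpoint) at chr2:127831810-127832109 on the minus strand.
Top2a: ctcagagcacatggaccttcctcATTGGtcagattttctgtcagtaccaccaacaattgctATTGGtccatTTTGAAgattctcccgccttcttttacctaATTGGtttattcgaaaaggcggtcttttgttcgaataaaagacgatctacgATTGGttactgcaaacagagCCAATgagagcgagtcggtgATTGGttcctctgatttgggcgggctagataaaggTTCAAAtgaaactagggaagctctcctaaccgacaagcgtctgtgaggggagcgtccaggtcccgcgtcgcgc
Ccnb2: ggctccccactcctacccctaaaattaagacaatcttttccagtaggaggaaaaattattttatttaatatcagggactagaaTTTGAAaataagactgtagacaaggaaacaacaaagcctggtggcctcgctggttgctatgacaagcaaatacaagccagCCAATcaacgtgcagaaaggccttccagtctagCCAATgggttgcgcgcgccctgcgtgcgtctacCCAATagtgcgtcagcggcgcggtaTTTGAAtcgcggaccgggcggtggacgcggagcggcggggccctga
Ube2c: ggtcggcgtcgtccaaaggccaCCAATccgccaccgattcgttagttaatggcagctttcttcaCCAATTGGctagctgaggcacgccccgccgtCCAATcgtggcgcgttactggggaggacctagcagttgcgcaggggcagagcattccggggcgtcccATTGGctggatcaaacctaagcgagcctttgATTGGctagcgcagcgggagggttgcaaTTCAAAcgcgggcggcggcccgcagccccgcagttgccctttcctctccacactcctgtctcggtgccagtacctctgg
Bub1: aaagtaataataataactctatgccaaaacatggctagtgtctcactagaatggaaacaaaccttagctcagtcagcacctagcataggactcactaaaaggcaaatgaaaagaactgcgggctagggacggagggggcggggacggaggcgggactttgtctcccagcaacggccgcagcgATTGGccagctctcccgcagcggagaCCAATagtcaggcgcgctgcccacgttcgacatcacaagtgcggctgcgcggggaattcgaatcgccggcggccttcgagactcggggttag
The first 3 hold both searched elements. The Bub1 window holds the CCAAT box and no TTTGAA, though it holds the unmarked form TTCGAA. Of the 28 mitosis genes, 23 matched the promoter table, with 24 windows. TTTGAA occurred in 18 of the 24 windows (75.0%), against 17.9% of all 32851 windows of the same length. CCAAT occurred in 20 (83.3%), against 37.4% of all windows, and both occurred in 17 (70.8%), against 6.95%. Among 26 windows of DNA replication and S phase genes, TTTGAA occurred in 11.5%, CCAAT in 57.7% and both in 7.69%. Over the tested genes with a window, 174 of the 687 with both elements (25.3%) were lower in both nonclassical libraries, against 18.1% of 9487 with any window. With the mitosis list left out, 158 of 671 (23.5%) were lower. Cell cycle genes outside that list were not left out, and their part in the remaining margin was not tested. A match of these letters is a description of the window and not a bound site.

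Depth was similar in the 4 libraries, at 24795598 and 29346281 counts in nonclassical and 24441833 and 22063949 in intermediate libraries, and the classical libraries held 31679733 and 21153002. Replicates of these subsets agreed less than elsewhere among the primary libraries. Of the 13944 genes tested, 38.38% differed by over 2-fold between the nonclassical replicates and 36.43% between the intermediate ones, against 8.297% between the classical replicates. Within the 4 classes 12.03% to 24.13% did, over the 15149 genes and the scaling of a fit of all 14 primary libraries. The second nonclassical library detected the fewest genes: of 9156 genes with at least 100 counts in both classical libraries, 178 had no count in it, against 23 in the first nonclassical library and 44 and 47 in the intermediate ones. Log2 CPM of replicate 1 of nonclassical correlated more with replicate 1 of intermediate (r = 0.871 across genes) than with its own replicate (r = 0.744). Replicate 2 of nonclassical correlated at 0.821 and 0.823 with the classical libraries, above the value with its own replicate. Replicate 2 of intermediate correlated at 0.827 and 0.811 with the classical libraries and at 0.797 with its own replicate.

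Transcripts of liver and lung stood apart in 3 of the 4 libraries. The 16 liver genes, among them Alb (serum albumin), Apoa2 and Fabp1, summed to 21080 CPM in the first and 22.21 CPM in the second nonclassical library, and to 36100 CPM in the first and 2704 CPM in the second intermediate library. The classical libraries held 75.2 and 2.633 CPM, and the highest sum in the other 58 libraries was 82.9 CPM without TMM scaling. The 6 lung genes, among them the surfactant gene Sftpc and the club cell gene Scgb1a1, summed to 768.3 and 3.258 CPM in nonclassical and 1773 and 98.56 CPM in intermediate libraries. Alb and Sftpc counts stood in a ratio of 12.6 and 4.56 in the nonclassical libraries and 13.3 and 11.9 in the intermediate ones. All 16 liver and all 6 lung genes overlapped between the groups. These lists were written after the values had been seen, and the part of this RNA in other results was not tested, but the mitosis, S phase, progenitor, neutrophil, B cell and nonclassical monocyte lists are also given without replicate 1 of both groups. That leaves 1 library against 1, in which 52.3% of all genes were lower and 47.7% higher in nonclassical, with a median log2 difference of -0.06. A gene that separates in the 4 libraries keeps its direction there by construction. For these lists the size of the difference is therefore given in place of counts of separated members.

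**Figure D1:**
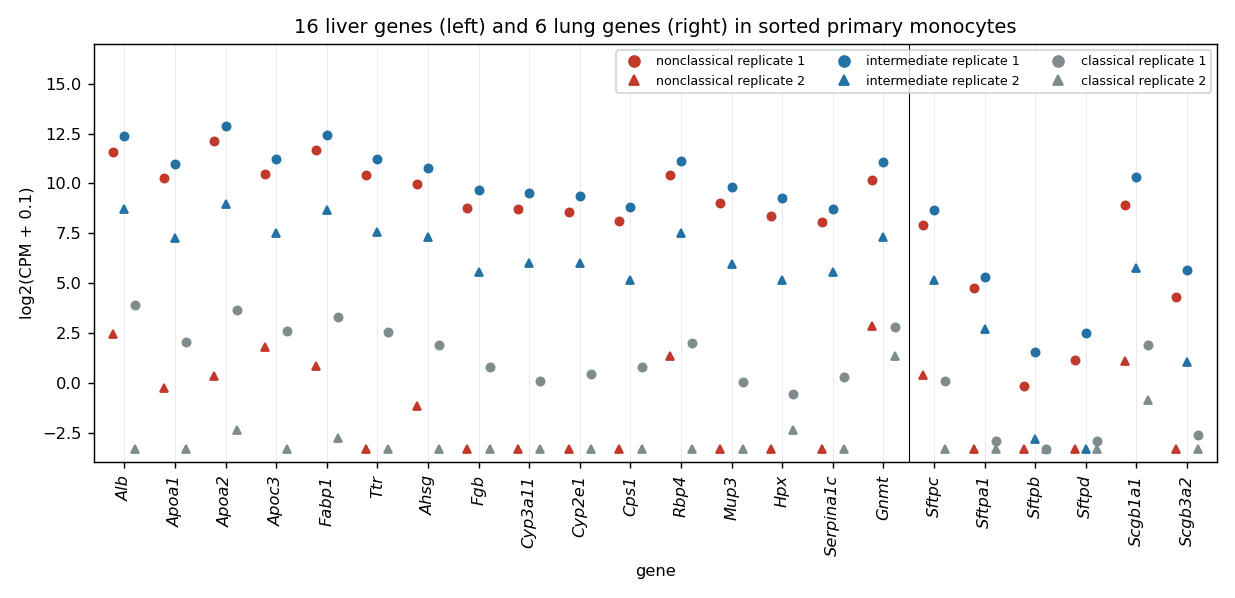
Level of 16 liver and 6 lung genes in each library, as log2(CPM + 0.1) against gene, with nonclassical in red, intermediate in blue and classical in grey, circles for replicate 1 and triangles for replicate 2. The first replicates of nonclassical and intermediate lie highest (liver sums of 21080 and 36100 CPM), the second intermediate replicate lies between, and the second nonclassical replicate lies near the classical libraries.

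The subsets were fitted together with the classical libraries (edgeR's quasi-likelihood test, 3 residual degrees of freedom), and 0 of 13944 genes passed a Benjamini-Hochberg adjusted p of 0.05. The smallest adjusted p was 0.22, and 931 genes (6.68%) were higher and 779 (5.59%) lower in nonclassical libraries at an unadjusted p under 0.05. A single gene in 2 libraries against 2 cannot reach an exact permutation p below 0.333. When the 8 class libraries were added, so that 7 residual degrees of freedom came from all 14 primary libraries, 301 of 15149 genes passed as higher (1.99%) and 323 as lower (2.13%), 4.12% of genes in all. That fit takes the subsets to vary like the classes, whose replicates differed less. DESeq2 on the 6 libraries called 602 genes higher and 603 lower. Below, "passed" refers to edgeR's adjusted p in the 14-library fit.

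By separation alone, 2737 genes (19.6%) were higher in both nonclassical libraries than in both intermediate ones, 2457 (17.6%) were lower, and 8750 overlapped. With the nearest libraries of the groups at least 2-fold apart, 468 (3.36%) were higher and 545 (3.91%) lower. Scaling by total counts in place of TMM moved the split of separated genes to 2023 higher and 3060 lower, with the median log2 fold change over all genes at -0.18 in place of -0.05, so directions are given relative to TMM scaling. All 624 genes that passed had groups that did not overlap, and 310 of them were at least 2-fold apart.

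Every one of the 28 mitosis genes was lower in both nonclassical libraries than in both intermediate ones, against 17.6% of all genes tested, and 17 were at least 2-fold apart, against 3.91%. The list had a median log2 fold change of -1.64, beside -0.05 over all genes, and 22 members passed, against 2.13% of all genes. Its CPM summed to 1029 and 873.5 in nonclassical, 2742 and 3025 in intermediate, and 6054 and 6644 in classical libraries. All 28 genes kept that order of subsets without overlap, which 5.08% of tested genes did. Between the second libraries alone, nonclassical minus intermediate, the median log2 difference of the list was -1.95, beside -0.06 over all genes.

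**Figure D2:**
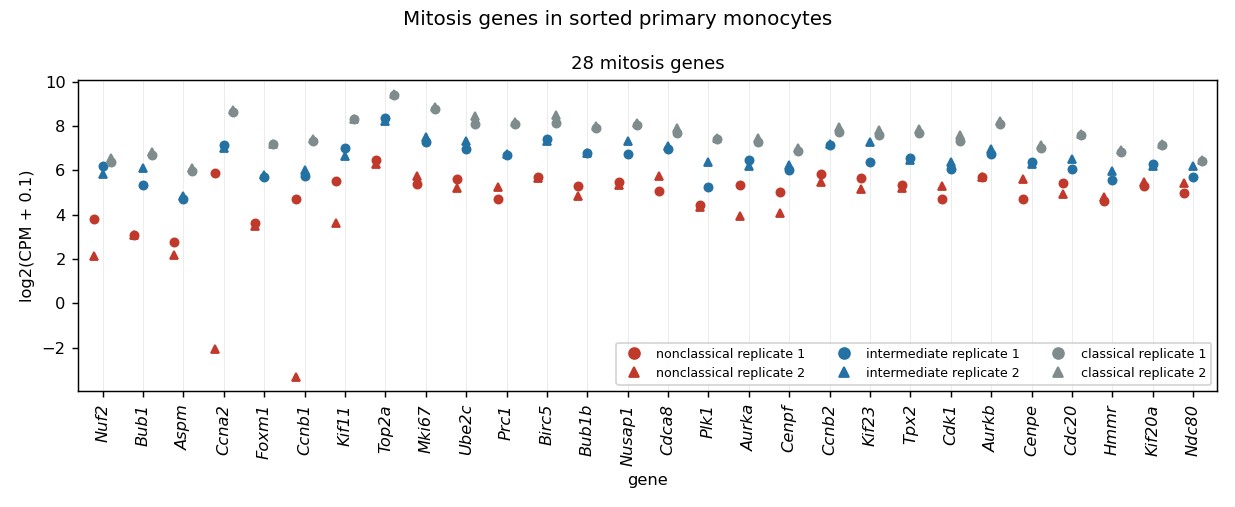
Level of the 28 mitosis genes in each library, as log2(CPM + 0.1) against gene, sorted by fold change, with nonclassical in red, intermediate in blue and classical in grey, circles for replicate 1 and triangles for replicate 2. For each gene both nonclassical points lie below both intermediate points and these below both classical points, and Ccna2 and Ccnb1 fall near the bottom in the second nonclassical library.

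Members of the list differed in how far apart the groups lay. Bub1 had the widest gap, with 8.38 and 8.34 CPM in nonclassical, 39.8 and 69.6 CPM in intermediate and 103 and 113 CPM in classical libraries. Foxm1 had the next widest gap, and reached 148 and 148 CPM in the classical libraries, above both other subsets. Nuf2, a kinetochore protein that binds spindle microtubules, had 14.1 and 4.31 CPM in nonclassical and 73.8 and 56.5 CPM in intermediate libraries. The proliferation antigen Mki67 had 42.2 and 53.01 CPM in nonclassical, 153 and 182 CPM in intermediate and 430.5 and 465 CPM in classical libraries. Ube2c had 48.5 and 37.00 CPM in nonclassical and 125 and 159 CPM in intermediate libraries, and Ccnb2 had 56.4 and 44.8 CPM in nonclassical and 140.0 and 145 CPM in intermediate libraries. The smallest gap was that of Ndc80, the partner of Nuf2, at 30.9 and 42.4 CPM in nonclassical and 51.2 and 72.7 CPM in intermediate libraries. The cyclin genes Ccna2 and Ccnb1 were split between replicates: Ccna2 had 58.6 and 0.140 CPM in nonclassical libraries, against 142 and 129 CPM in intermediate ones. Ccnb1 had 26.4 and 0 CPM in nonclassical libraries, against 52.7 and 64.6 CPM in intermediate ones. Both were at or near 0 in the second nonclassical library, the one with the most undetected genes, and neither passed.

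Genes of DNA replication and S phase were in part lower. Of 26 members, 18 were lower in both nonclassical libraries, 8 overlapped and none was higher, against 17.6% of all genes lower and 19.6% higher. Of the 26, 7 were at least 2-fold apart, against 3.91% of all genes, and 8 passed, against 2.13%. Their CPM summed to 1292 and 1107 in nonclassical, 1951 and 2808 in intermediate, and 3293 and 3367 in classical libraries. Rrm2, the S phase subunit of ribonucleotide reductase, had 62.4 and 39.6 CPM in nonclassical and 198 and 234 CPM in intermediate libraries. Tk1, thymidine kinase, had 23.2 and 23.02 CPM in nonclassical and 67.5 and 75.9 CPM in intermediate libraries. The intermediate level of Tk1 lay at the classical level of 71.2 and 75.00 CPM, whereas that of Rrm2 lay below its classical level of 329 and 364 CPM. The sliding clamp gene Pcna overlapped, with 133 and 125 CPM in nonclassical and 130.1 and 159.9 CPM in intermediate libraries. Between the second libraries alone the median log2 difference was -1.40, beside -0.06 over all genes. The 8 members that overlap in the 4 libraries were lower there, and the direction of the other 18 was fixed by their separation.

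Genes of cell cycle exit did not mirror the mitosis genes as a list. Of 13, 5 were higher in both nonclassical libraries, 3 lower and 5 overlapped, against 19.6% of all genes higher and 17.6% lower. Btg1, an antiproliferative factor, passed as higher, with 1910.3 and 1826 CPM in nonclassical and 950.3 and 1069 CPM in intermediate libraries. Cdkn2c, an inhibitor of the kinases that open G1, passed as lower, with 19.6 and 26.5 CPM in nonclassical and 52.6 and 37.5 CPM in intermediate libraries, and was highest in classical libraries at 134 and 167 CPM. Cdkn1a, the inhibitor p21, had 316 and 325 CPM in nonclassical and 272 and 206 CPM in intermediate libraries.

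Progenitor and primary granule genes had the lowest median log2 fold change of the 30 lists, at -2.72. Of 15 members, 12 were lower in both nonclassical libraries (17.6% of all genes were), 8 were at least 2-fold apart (3.91%), 9 passed as lower (2.13%) and 1, Sox4, was higher. The list summed to 1363 and 1626 CPM in nonclassical, 5626 and 14450 CPM in intermediate, and 2356 and 2502 CPM in classical libraries. Unlike the mitosis genes, it was thus highest in the intermediate libraries and differed by over 2-fold between their replicates.

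Among the granule enzymes, Elane, neutrophil elastase, had 23.4 and 3.05 CPM in nonclassical, 365 and 1933 CPM in intermediate and 221 and 308 CPM in classical libraries. Mpo, myeloperoxidase, had 83.5 and 269 CPM in nonclassical, 2856 and 7658 CPM in intermediate and 213 and 324 CPM in classical libraries. Prtn3 had 188 and 198 CPM in the classical libraries, below both intermediate values and above both nonclassical ones. The regulators and receptors of progenitors were lower as well. Myb, a transcription factor of immature blood cells, had 18.1 and 5.04 CPM in nonclassical and 99.5 and 134 CPM in intermediate libraries. Kit, the receptor for stem cell factor, had 3.82 and 6.13 CPM in nonclassical and 31.4 and 71.9 CPM in intermediate libraries, while the classical libraries had 0.285 and 0.136 CPM. Cd34, a surface antigen of progenitors, had 7.50 and 13.8 CPM in nonclassical and 74.1 and 65.99 CPM in intermediate libraries. Cebpe, the factor of late granulocyte maturation, had 2.81 and 0.876 CPM in nonclassical and 9.59 and 24.8 CPM in intermediate libraries. In every one of these genes but Cd34 the second intermediate library was the highest of the 4.

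**Figure D3:**
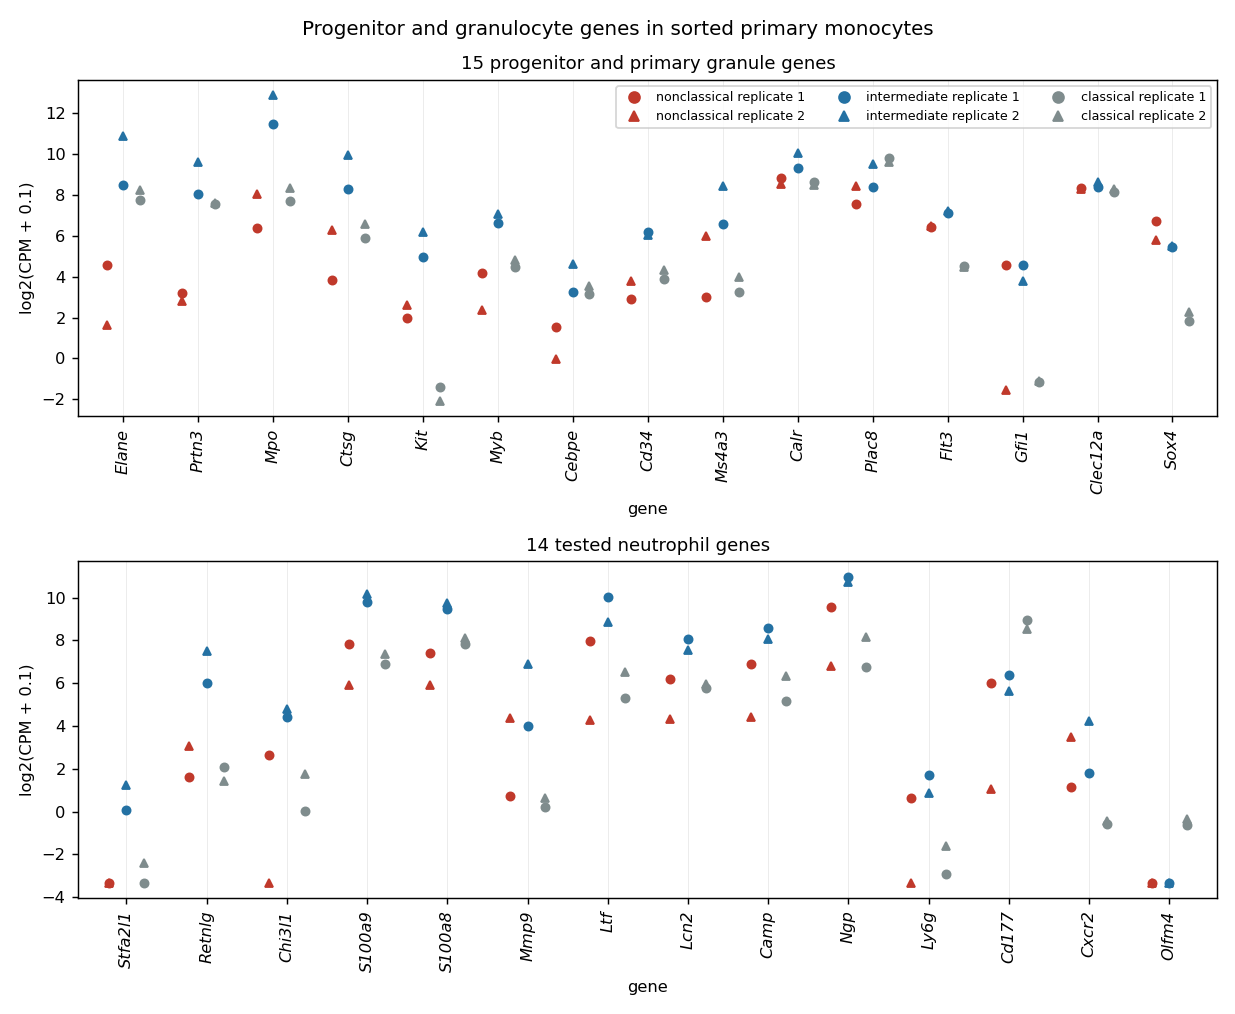
Level of 15 progenitor and primary granule genes (top) and 14 tested neutrophil genes (bottom) in each library, as log2(CPM + 0.1) against gene, with nonclassical in red, intermediate in blue and classical in grey, circles for replicate 1 and triangles for replicate 2. The intermediate points lie above the nonclassical points for 12 of the 15 and 10 of the 14 genes.

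Most neutrophil genes were lower too. Of 14 tested members, 10 were lower in both nonclassical libraries, 4 overlapped and none was higher; 8 were at least 2-fold apart and 3 passed, against 17.6% of all genes lower, 3.91% at least 2-fold lower and 2.13% passed as lower. They summed to 1660 and 333.5 CPM in nonclassical, 5496 and 5048 CPM in intermediate, and 1089 and 1350 CPM in classical libraries, so the nonclassical replicates differed from each other by over 2-fold. S100a8, a calcium-binding protein abundant in neutrophils, had 167 and 60.8 CPM in nonclassical and 704 and 858 CPM in intermediate libraries. Retnlg, a resistin-like secreted protein, had 2.98 and 8.20 CPM in nonclassical and 64.1 and 179 CPM in intermediate libraries. Ngp, a secondary granule protein, had 749 and 111 CPM in nonclassical and 2014 and 1713 CPM in intermediate libraries. The neutrophil surface antigen gene Ly6g was at 1.45 and 0 CPM in nonclassical and 3.17 and 1.70 CPM in intermediate libraries. Between the second libraries alone the median log2 difference was -3.54 for the 15 progenitor genes and -4.11 for the 14 neutrophil genes. Over all genes it was -0.06.

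The mitosis and progenitor lists were both higher in the intermediate libraries, and the part of progenitors in the mitosis difference was not tested. The intermediate replicates, whose progenitor sums were 5626 and 14450 CPM, had mitosis sums of 2742 and 3025 CPM. The classical libraries had the highest mitosis sums with progenitor sums of 2356 and 2502 CPM.

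B cell genes had the highest median log2 fold change of the 30 lists. Of 17 tested members, 16 were higher in both nonclassical libraries, against 19.6% of all genes, and 14 were at least 2-fold apart, against 3.36%. Of them 10 passed, against 1.99% of all genes, and the median log2 fold change was 2.08, beside -0.05 over all genes. They summed to 5276 and 4377 CPM in nonclassical, 1384 and 1248 CPM in intermediate, and 471.7 and 501.6 CPM in classical libraries. Between the second libraries alone the median log2 difference was 2.03, beside -0.06 over all genes.

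The list spans the B cell receptor, its surface partners and the factors that set B cell identity. Cd79a, a signalling chain of the B cell receptor, had 706 and 587 CPM in nonclassical, 163 and 143 CPM in intermediate and 4.30 and 3.27 CPM in classical libraries. Ms4a1, which encodes CD20, had 406 and 322 CPM in nonclassical and 63.4 and 52.3 CPM in intermediate libraries. Pax5, the factor that holds cells in the B lineage, had 40.3 and 65.1 CPM in nonclassical and 5.004 and 8.26 CPM in intermediate libraries. Ighm, the mu heavy chain, was present in all 3 subsets, at 2446 and 2036 CPM in nonclassical, 756 and 681 CPM in intermediate and 429 and 459 CPM in classical libraries. Apart from Ighm, Cd79b and Bank1, the classical libraries held under 5 CPM of each member.

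Both immature and mature B cell genes were among them. Vpreb3, expressed in B cell precursors, had 85.1 and 69.6 CPM in nonclassical and 13.1 and 9.13 CPM in intermediate libraries. Igll1, the surrogate light chain of pre-B cells, was at or near 0 in the intermediate libraries, with 7.50 and 9.84 CPM in nonclassical and 0.584 and 0 CPM in intermediate libraries. Fcer2a (CD23), found on mature follicular B cells, had 158 and 88.01 CPM in nonclassical and 44.7 and 40.3 CPM in intermediate libraries. Cr2, a complement receptor of mature B cells, was the member that overlapped, at 22.4 and 24.4 CPM in nonclassical and 10.7 and 22.5 CPM in intermediate libraries. The Vpreb3 window, at chr10:75948050-75948349 on the plus strand of GRCm38.p6, is shown because it was the only 1 of 15 windows from 12 matched list members out of 19 to hold the octamer ATTTGCAT, the element bound by Oct factors in immunoglobulin promoters, which 1.74% of all windows hold. The octamer is in capitals.
Vpreb3: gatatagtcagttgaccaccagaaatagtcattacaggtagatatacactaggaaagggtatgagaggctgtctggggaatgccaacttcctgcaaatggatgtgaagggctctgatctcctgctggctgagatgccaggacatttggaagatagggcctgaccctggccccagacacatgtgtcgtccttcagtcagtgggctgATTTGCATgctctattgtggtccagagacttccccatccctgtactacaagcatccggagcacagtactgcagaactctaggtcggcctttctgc
The letters ATTTGCAT were searched on both strands.

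**Figure D4:**
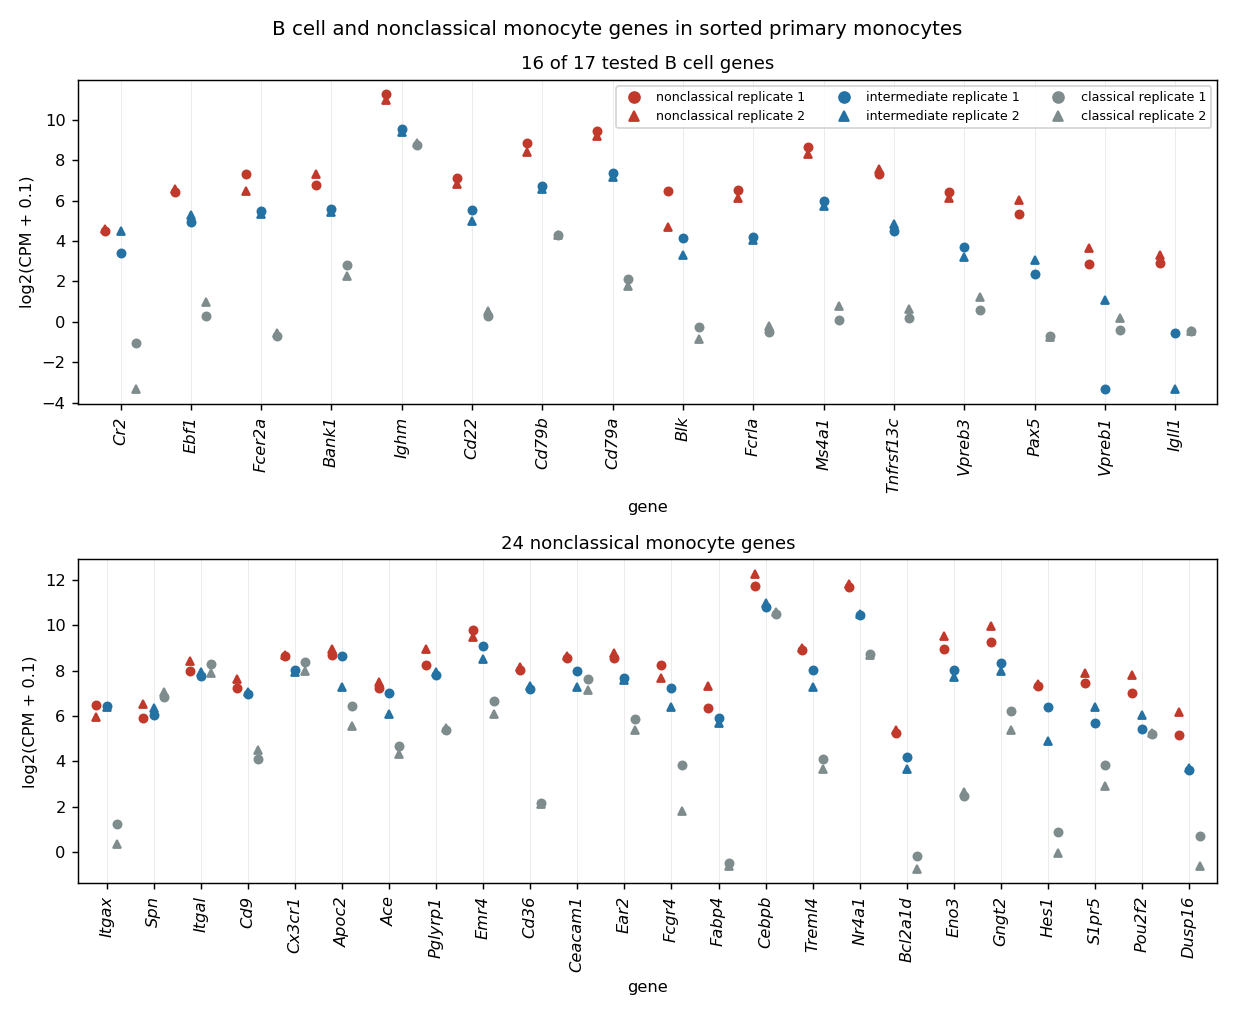
Level of 16 of the 17 tested B cell genes (top) and 24 nonclassical monocyte genes (bottom) in each library, as log2(CPM + 0.1) against gene, with nonclassical in red, intermediate in blue and classical in grey, circles for replicate 1 and triangles for replicate 2. The nonclassical points lie above the intermediate points for 15 of the 16 B cell genes drawn, all but Cr2, and for 22 of the 24 monocyte genes, all but Itgax and Spn.

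The 12 genes with the widest gap upwards, among genes whose log2 CPM averaged 3 or more over the 4 libraries, included Fam129c, Srpk3, Tnfrsf13c, Vpreb3, Ms4a1, Rrm2b, Pax5, Iglc2, Slain1, Iglc3 and Ly6d. Iglc2, a constant region of the lambda light chain that can share reads with Iglc3, had 321 and 275 CPM in nonclassical libraries, against 57.9 and 36.6 CPM in intermediate ones. Ly6d, a surface marker of early B lineage cells that plasmacytoid dendritic cells also carry, had 415 and 397 CPM in nonclassical and 96.7 and 52.7 CPM in intermediate libraries. Fam129c had 57.4 and 53.5 CPM in nonclassical and 8.26 and 4.94 CPM in intermediate libraries. Rrm2b, the ribonucleotide reductase subunit that p53 induces outside S phase, was lowest in the intermediate libraries: it had 36.4 and 42.95 CPM in nonclassical, 7.26 and 6.68 CPM in intermediate and 8.10 and 11.2 CPM in classical libraries. All 12 passed.

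The 12 genes with the widest gap downwards were Prtn3, Elane, Mpo, Retnlg, Pbk, Ifi205, Pdia5, Ctps, Myb, Mybl2, Kit and Cd34. Each of the 12 passed, beside 2.13% of all genes as lower, but they too were picked by their gap in these same libraries. Pbk, a mitotic kinase, had 11.8 and 11.6 CPM in nonclassical, 70.9 and 111 CPM in intermediate and 106 and 135 CPM in classical libraries. Mybl2, a transcription factor that acts on mitotic genes together with Foxm1, had 6.98 and 7.32 CPM in nonclassical and 38.2 and 55.9 CPM in intermediate libraries. Ctps, which makes CTP for nucleic acid synthesis, had 5.48 and 2.03 CPM in nonclassical and 30.8 and 39.9 CPM in intermediate libraries. Ifi205, an interferon-inducible protein of the p200 family, had 7.68 and 9.07 CPM in nonclassical, 53.96 and 132 CPM in intermediate and 22.3 and 18.6 CPM in classical libraries.

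Markers of the labelled cell type followed the labels. Of 24 nonclassical monocyte genes, 22 were higher in both nonclassical libraries, against 19.6% of all genes, 2 overlapped and none was lower. Of them 4 were at least 2-fold apart, against 3.36% of all genes, and 3 passed, against 1.99%. The median log2 fold change was 1.07, below that of the B cell list. The list summed to 12900 and 15970 CPM in nonclassical, 7114 and 6582 CPM in intermediate, and 3325 and 3056 CPM in classical libraries. For 19 members the subsets stood in the order nonclassical above intermediate above classical without overlap, which 4.78% of tested genes did. Between the second libraries alone the median log2 difference was 1.33, beside -0.06 over all genes.

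Nr4a1 had 3277 and 3634 CPM in nonclassical, 1417 and 1464 CPM in intermediate and 419 and 416 CPM in classical libraries, with a log2 fold change of 1.26 (SE 0.15), and passed. Its replicates lay closer together than the subsets did. Cebpb, a transcription factor on which nonclassical monocytes depend, passed with 3402 and 4877 CPM in nonclassical and 1793 and 2031 CPM in intermediate libraries. Pou2f2, the Oct2 factor that B cells also carry, passed with 129.9 and 223 CPM in nonclassical and 42.2 and 65.4 CPM in intermediate libraries. S1pr5, the receptor by which these cells leave the marrow, had 177 and 239 CPM in nonclassical and 51.6 and 83.3 CPM in intermediate libraries. Treml4 had 473 and 516 CPM in nonclassical, 261 and 156 CPM in intermediate and 17.01 and 12.6 CPM in classical libraries. Cd36, a scavenger receptor for lipids, had 264 and 287 CPM in nonclassical and 146 and 161 CPM in intermediate libraries.

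Some standard surface markers separated little. Cx3cr1, the fractalkine receptor, had 393 and 416 CPM in nonclassical, 260.5 and 246 CPM in intermediate and 333 and 251 CPM in classical libraries. Spn, which encodes CD43, overlapped, at 59.5 and 91.5 CPM in nonclassical and 66.5 and 82.4 CPM in intermediate libraries, and was highest in classical libraries at 113 and 134 CPM. Itgax, which encodes CD11c, overlapped at 88.5 and 62.6 CPM in nonclassical and 86.03 and 84.2 CPM in intermediate libraries. Csf1r, the receptor for the monocyte growth factor, had 1536 and 1346 CPM in nonclassical and 1003 and 735 CPM in intermediate libraries.

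Classical monocyte genes split: of 16, 5 were lower in both nonclassical libraries (17.6% of all genes were), 3 higher (19.6%) and 8 overlapped. The list summed to 3345 and 1429 CPM in nonclassical, 4742 and 2247 CPM in intermediate, and 21740 and 18100 CPM in classical libraries. Like the liver and lung genes, it was higher in the first replicate of both nonclassical and intermediate. Much of this came from the member Mgst1, at 1476 and 82.6 CPM in nonclassical and 2230 and 204 CPM in intermediate libraries. Some other members, such as Ly6c2 and F13a1, were higher in the second replicate of both. The part of liver and lung RNA in this list was not tested. Ly6c2, a gene for the Ly6C antigen whose reads can be shared with Ly6c1, had 16.4 and 21.2 CPM in nonclassical, 72.5 and 113 CPM in intermediate and 2208 and 2512 CPM in classical libraries, and passed. F13a1, the A chain of coagulation factor XIII, had 55.8 and 106 CPM in nonclassical and 181 and 209 CPM in intermediate libraries, and passed too. Ccr2 had 466 and 464 CPM in nonclassical, 483 and 641 CPM in intermediate and 1919.8 and 1607 CPM in classical libraries, a separation of the nearest replicates of 0.05 on the log2 scale. Both subsets were thus far below classical libraries in Ly6c2, and less so in Ccr2.

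**Figure D5:**
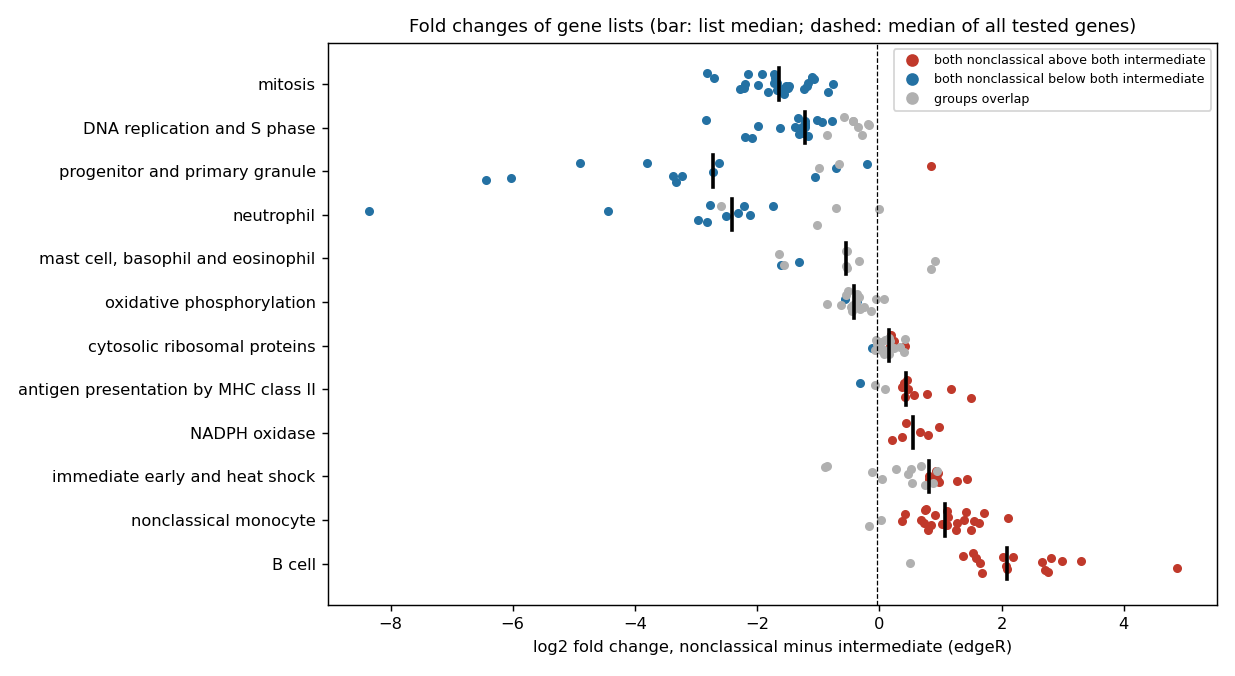
Log2 fold change, nonclassical minus intermediate, of each tested member of 12 gene lists, coloured by whether both nonclassical libraries lay above (red) or below (blue) both intermediate ones or the groups overlapped (grey). Black bars mark list medians (-1.64 for mitosis, 2.08 for B cell) and the dashed line the median of all tested genes (-0.05).

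Antigen presentation genes were higher by small amounts. The list of 12 held MHC class II genes and others of antigen-presenting cells (Ciita, Ctss, Cd86 and Cd209a). Of the 12, 9 were higher in both nonclassical libraries, against 19.6% of all genes, 1 was lower and 2 overlapped. None was at least 2-fold apart, beside 3.36% of all genes higher and 3.91% lower. As higher, 1 passed, against 1.99% of all genes. The lower member was Cd86, a costimulatory ligand, at 35.8 and 43.1 CPM in nonclassical and 49.4 and 49.5 CPM in intermediate libraries, and the overlapping ones were H2-DMa and H2-DMb1. Cd74, the invariant chain, had 23181 and 19489 CPM in nonclassical, 13996 and 14812 CPM in intermediate and 527 and 528 CPM in classical libraries. The member that passed was H2-DMb2, at 241 and 143 CPM in nonclassical and 80.6 and 55.6 CPM in intermediate libraries. H2-Ob, a class II modulator typical of B cells, had 158 and 101 CPM in nonclassical and 52.3 and 63.5 CPM in intermediate libraries. B cells make these genes too, and the 17 tested B cell genes were higher too (5276 and 4377 CPM in nonclassical, 1384 and 1248 CPM in intermediate libraries); their part in the class II differences was not tested. Ccr7, a chemokine receptor of lymphocytes and dendritic cells, had 550.5 and 298 CPM in nonclassical and 119 and 93.3 CPM in intermediate libraries.

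Lists of NADPH oxidase, immediate early, inflammatory and survival genes leaned higher too. Their counts stand against 19.6% of all genes higher and 17.6% lower. All 6 NADPH oxidase genes were higher in both nonclassical libraries, and Cybb, the catalytic subunit, passed at 1859 and 1954 CPM in nonclassical and 1045 and 899.5 CPM in intermediate libraries, while the classical libraries had 2453 and 1995 CPM. Of 21 immediate early and heat shock genes, 9 were higher, none lower and 12 overlapped. The higher ones included Nr4a1, which is also on the nonclassical monocyte list. Atf3, a stress-induced repressor, passed at 4038 and 4135 CPM in nonclassical and 2332 and 2310.2 CPM in intermediate libraries, as did Jund, an AP-1 subunit, at 2420.0 and 3163 CPM in nonclassical and 1263 and 1566 CPM in intermediate libraries. Fos, another AP-1 subunit, differed more between replicates than between subsets, with 4958 and 11726 CPM in nonclassical and 3245 and 8369.7 CPM in intermediate libraries. Of 19 inflammatory genes, 10 were higher and 4 lower; Il1b, interleukin 1 beta, had 357 and 358 CPM in nonclassical, 142 and 138 CPM in intermediate and 21.7 and 9.63 CPM in classical libraries. Of 18 survival genes, 12 were higher and 2 lower, and Birc3, an inhibitor of apoptosis, passed at 175 and 161 CPM in nonclassical and 84.9 and 89.7 CPM in intermediate libraries.

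Transcription factors of myeloid fate went both ways, with 8 of 19 higher (42.1%, against 19.6% of all genes) and 5 lower (26.3%, against 17.6%). Irf8, which commits progenitors to monocytes, passed as lower, at 431 and 497 CPM in nonclassical, 686 and 789.5 CPM in intermediate and 789.6 and 835 CPM in classical libraries. Of 23 migration genes, 9 were higher (39.1%) and 4 lower (17.4%, near the share of all genes), and Cxcr4, which retains cells in the marrow, passed as higher at 107 and 91.9 CPM in nonclassical and 49.5 and 51.00 CPM in intermediate libraries. Of 22 lysosome genes, 6 were higher (27.3%) and 3 lower (13.6%), shares near those of all genes, and Tfeb, a regulator of lysosome genes, passed at 181 and 229 CPM in nonclassical and 98.8 and 87.5 CPM in intermediate libraries. Of 18 phagocytic and scavenger receptors 6 were higher (33.3%) and 1 lower (5.56%), and of 22 interferon-stimulated genes 10 were higher (45.5%) and 1 lower (4.55%).

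Basophil and mast cell genes were high in both subsets, and most overlapped over the 4 libraries. The 11 tested members summed to 1736 and 6151 CPM in nonclassical, 3844 and 8200 CPM in intermediate, and 17.01 and 11.08 CPM in classical libraries. Of these, 9 overlapped and 2 were lower (18.2%, near the 17.6% of all genes). Prss34, a basophil protease, had 1193 and 3878 CPM in nonclassical, 2409.5 and 4924 CPM in intermediate and 10.6 and 3.86 CPM in classical libraries. The summed level was higher in the second replicate of each subset than in the first, and lower in nonclassical than in intermediate within each replicate number. Within both numbers 9 of the 11 were lower in nonclassical, against 31.7% of all genes, with median log2 differences of -1.39 for number 1 and -0.34 for number 2. The labels do not say that the numbers pair the libraries. Like the B cell genes, they were far more abundant in both subsets than in classical libraries, and their part in the differences between the subsets was not tested.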

How the data were processed

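Counts of reads per gene for 37620 genes were used as deposited by the authors. The submitters' processing notes name the mouse build mm9 and the tools STAR 2.7.3a and HTSeq 0.6.0; the strand setting and annotation are not given in the sources used here, so reads of overlapping, antisense and near-identical genes (Ly6c2 and Ly6c1, immunoglobulin and MHC genes) cannot be told apart. In the table, 1 column with no sample in the labels was not used. Libraries were grouped by title. Gene names are those of the table, of which 32897 IDs matched GENCODE M21.

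The 6 subset libraries were fitted with edgeR 4.0.16 in R 4.3.3 (filterByExpr with a minimum count of 10, TMM, 2-sided quasi-likelihood F test, Benjamini-Hochberg over 13944 genes, threshold 0.05, biological coefficient of variation 0.814, 0.643 with 14 libraries). Separation was read on log2 CPM with a prior count of 2. DESeq2 1.42.0, other scalings, filters and samples were alternatives. The fit was run on simulated counts at the spread of these data and at a lower spread. A required outcome was set only at the lower spread, so the run does not show what the fit can find here.

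The members and 30 gene lists were chosen with earlier results of these data known, so their counts are descriptions. The genes named are the 4 markers, 9 monocyte genes, the 12 with the widest gap in each direction, and up to 3 per list and direction with the widest gap plus 1 overlapping member. Other list members named in the text were chosen after their values were seen. Of these genes, 1 is not reported here. A p-value here reflects no more than the spread among the deposited libraries.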

Additional observations from a re-analysis of the deposited data

How the results depend on the processing

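Calls past the threshold depended on the source of the spread. With edgeR, 0 genes passed with 6 libraries, with only the 4 libraries, and under DESeq2 size factors, total counts, no filter, a minimum count of 50 or any single library left out (range 0 to 0). With all 14 primary libraries 301 genes were called higher and 323 lower, and DESeq2 called 602 higher and 603 lower, with 2585 at an unadjusted p under 0.05. With the replicate number as a block, 0 genes passed in either direction and 1499 had an unadjusted p under 0.05. Same-numbered deviations correlated at 0.3836 for nonclassical and intermediate, 0.2806 for nonclassical and classical and 0.1797 for intermediate and classical libraries. With 2 replicate numbers and no label that ties them, these are a hint from the data and not a paired design.

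Counts of separated genes kept within 1.5 times under the scalings, filters and the prior count of 0.5. With single libraries left out, 5013 to 5538 genes were higher and 3783 to 5794 lower, 1197 to 1346 of them at least 2-fold higher and 1020 to 2684 at least 2-fold lower, since fewer libraries separate more easily. Without replicate 1 of both groups, an alternative chosen after seeing the data, 6410 genes were higher and 7346 lower, 2319 and 3666 of them by at least 2-fold, and 2846 higher and 4091 lower genes were called on the spread of the classical pair alone. Mgst1 was not followed under these settings. Of the other genes named, the log2 fold change changed sign for Spn with total counts (-0.11) and the replicate block (-0.00096). With single libraries left out it did so for Spn (-0.32 to 0.3), Itgax (-0.44 to 0.064), Cr2 (-0.0055 to 1.14), Fos (-0.22 to 1.37) and Prss34 (-1.61 to 0.083). Each of them overlapped.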

Other observations

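Lists of general metabolism differed in how many members separated, beside 19.6% of all genes higher and 17.6% lower in both nonclassical libraries. Of 19 genes of oxidative phosphorylation, 17 overlapped and 2 were lower in both nonclassical libraries. Within both replicate numbers 17 were lower, against 31.7% of all genes, but the labels do not say that the numbers pair the libraries. The list summed to 6525 and 3950 CPM in nonclassical and 8545 and 4945 CPM in intermediate libraries. Like the liver genes, it was higher in the first replicate of both subsets, and the part of liver RNA in it was not tested. Of 22 cytosolic ribosomal protein genes 17 overlapped, 4 were higher and 1 was lower. Ribosome biogenesis genes leaned lower, with 8 of 18 lower (44.4%), 1 higher and 9 overlapping; Dkc1, the pseudouridine synthase of small nucleolar ribonucleoproteins, had 66.3 and 42.04 CPM in nonclassical and 96.7 and 133 CPM in intermediate libraries, and passed the 14-library fit. Of 14 glycolysis genes, 7 were lower (50%) and 2 higher (14.3%), and of 17 cholesterol synthesis genes 5 were lower and 1 higher. The cholesterol synthesis list summed to 682.2 and 464.5 CPM in nonclassical and 1072 and 625.5 CPM in intermediate libraries. It too was higher in the first replicate of both subsets, and the part of liver RNA in it was not tested. None of the members of these 5 lists but Dkc1 passed, beside 4.12% of all genes in either direction.

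Markers of other cells of the marrow gave mixed separations. Beside them, 19.6% of all genes were higher and 17.6% lower in both nonclassical libraries, and 8750 of 13944 overlapped. The shares of the T and NK cell list, 25% higher and 12.5% lower, lay near those of all genes. Of 16 tested T and NK cell genes, 10 overlapped, 4 were higher and 2 lower; Nkg7, a granule protein of killer cells that basophils and some myeloid cells also carry, had 34.8 and 16.3 CPM in nonclassical and 72.3 and 339 CPM in intermediate libraries. Of 13 dendritic cell genes, 3 were higher and 5 lower; Siglech, a marker of plasmacytoid dendritic cells, had 6.89 and 34.5 CPM in nonclassical and 1.08 and 3.53 CPM in intermediate libraries, and Xcr1, a marker of cross-presenting conventional dendritic cells, had 2.28 and 0.105 CPM in nonclassical and 5.71 and 25.2 CPM in intermediate libraries. Of 13 tissue macrophage genes, 2 were higher, 4 lower and 7 overlapped. Among the lower ones Spic, a factor of iron-recycling macrophages, had 28.9 and 37.1 CPM in nonclassical, 40.04 and 60.3 CPM in intermediate and 0.190 and 0.636 CPM in classical libraries. The 2 higher ones had wider gaps than Spic. Mertk had 10.1 and 10.4 CPM in nonclassical and 4.92 and 0.706 CPM in intermediate libraries, and Emr1 had 374 and 354 CPM against 242 and 142 CPM. Of 13 tested erythroid and megakaryocyte genes 10 overlapped, as did 6 of 10 stromal and endothelial genes. Cxcl12, the chemokine of marrow stroma, had 61.8 and 55.4 CPM in nonclassical, 74.9 and 92.2 CPM in intermediate and 0.506 and 0.817 CPM in classical libraries. Xist, the RNA of the inactive X chromosome, had 29.8 and 44.8 CPM in nonclassical and 77.1 and 186 CPM in intermediate libraries, and the Y-linked genes were too low to test.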
